A study of Mus musculus with 48 samples.

Results

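A set of 10 genes of the glucocorticoid response and of growth arrest were followed in mouse liver during and after inflammation. They were chosen by symbol from the 29331 rows of the count table, as glucocorticoid receptor targets and stress genes of liver, and all 10 of 10 were found and passed the filter on low counts in every fit. Nr3c1 encodes the receptor itself. Fkbp5, Tsc22d3, Sgk1, Zbtb16 and Ddit4 are receptor targets, Cdkn1a and Arrdc3 belong to growth arrest and stress signalling, and Mt1 and Mt2 encode metallothioneins.

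Glucocorticoids bind the receptor in the cytoplasm, where chaperones hold it, and the receptor then enters the nucleus and binds DNA at paired sites. In nocturnal mice the hormone rises towards the onset of darkness, so many targets in liver follow the time of day. The receptor restrains inflammatory genes and raises genes of fuel supply, and inflammation itself raises the hormone.

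Liver RNA came from male wild-type mice that were given lipopolysaccharide (LPS), a bacterial cell wall component, without a break for 7 days, or from negative control (NC) mice. Both arms were sampled every 4 h on day 7, from ZT1 to ZT21, where ZT is Zeitgeber time, counted from lights on. LPS groups of days 3, 5, 9 and 11 were also collected, always at ZT21, and days 9 and 11 lie after the 7 days of LPS. Each of the 16 groups held 3 libraries, and NC livers of days other than 7 are not analysed here. No dose, route or vehicle is given in the sources used here.

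The 48 libraries held 28.2 to 45.3 M counts (median 32.9 M). Replicates are labelled biological, but not as separate animals, and p-values therefore cover only the scatter among the libraries at hand. Every replicate pair differed by more than counting noise. In a principal component analysis of day 7 (36 libraries, 15.6% of the variance on component 1), 4 LPS libraries stood apart, at scores of 81.8 (ZT13 replicate 2), 72.9 (ZT21 replicate 3), 63.2 (ZT21 replicate 1) and 62.6 (ZT1 replicate 2) against 27.6 for the next. In LPS ZT1 replicate 2 the summed level of 18 acute-phase genes was 179417 CPM (counts scaled to library depth), against at most 21617 CPM in the other day-7 LPS libraries. The sum of 12 neutrophil markers was 153 CPM there, against at most 32.8 CPM. Hepatocyte markers such as albumin summed to 82340 CPM or more in every library, so the liver label was met. In bulk tissue, fewer cells of a type and less RNA per cell cannot be told apart.

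Promoter windows, 250 bases before to 50 after a transcript start, were available from RefSeq (GRCm38.p6) for 8 of the 10 genes, 18 windows in all. The 4 sequences printed here were chosen for the elements they carry. In the Fkbp5 window this was only the E-box described below. The glucocorticoid response element was searched on both strands as AGAACA and, after 3 bases of any kind, its reverse complement TGTTCT. An exact match was present in 3 of 32851 windows of the genome (0.00913%), and 1 of these was a window of Sgk1 (chr10:21993640-21993939, plus strand), at position -189 relative to that start. Up to 2 mismatches were allowed in a second search, which 1.84% of all windows met, and which among the 18 windows added only another Sgk1 window. The metal response element, TGCACNC or TGCGCNC on either strand, was present 4 times in the Mt2 window (chr8:94172368-94172667, plus strand), a number reached by 0.517% of windows, and 3 times in the Mt1 window (chr8:94178839-94179138, plus strand), reached by 1.97%. At least 1 such element lay in 25.7% of windows, including those of Ddit4 and Arrdc3 and 1 of Sgk1. An E-box, CACGTG, the site read by the clock factors, lay in the window of Fkbp5 (chr17:28486100-28486399, minus strand) and, at position -246, in the same Sgk1 window as the response element, and in 7.15% of all windows. A letter match is a description of the window and not a bound site. Capitals mark the response element in Sgk1, the metal response elements in Mt1 and Mt2 and the E-box in Fkbp5, and the E-box of Sgk1 is left in lower case.
Sgk1: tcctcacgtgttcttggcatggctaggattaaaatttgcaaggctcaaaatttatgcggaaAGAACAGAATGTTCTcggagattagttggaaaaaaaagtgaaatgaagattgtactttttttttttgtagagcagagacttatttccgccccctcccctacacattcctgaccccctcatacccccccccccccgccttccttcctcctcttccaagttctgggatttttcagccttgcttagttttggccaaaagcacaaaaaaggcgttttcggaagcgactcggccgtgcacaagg
Mt1: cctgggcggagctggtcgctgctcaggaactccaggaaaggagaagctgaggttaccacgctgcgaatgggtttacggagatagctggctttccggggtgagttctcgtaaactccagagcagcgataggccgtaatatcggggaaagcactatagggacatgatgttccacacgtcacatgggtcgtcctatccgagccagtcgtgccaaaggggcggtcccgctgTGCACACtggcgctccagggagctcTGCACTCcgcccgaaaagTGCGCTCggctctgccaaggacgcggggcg
Mt2: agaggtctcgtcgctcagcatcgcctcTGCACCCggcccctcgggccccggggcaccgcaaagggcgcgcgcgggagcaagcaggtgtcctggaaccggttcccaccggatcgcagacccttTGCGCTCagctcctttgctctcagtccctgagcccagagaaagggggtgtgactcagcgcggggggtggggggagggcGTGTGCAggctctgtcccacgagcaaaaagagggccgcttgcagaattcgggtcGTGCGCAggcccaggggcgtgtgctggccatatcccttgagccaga
Fkbp5: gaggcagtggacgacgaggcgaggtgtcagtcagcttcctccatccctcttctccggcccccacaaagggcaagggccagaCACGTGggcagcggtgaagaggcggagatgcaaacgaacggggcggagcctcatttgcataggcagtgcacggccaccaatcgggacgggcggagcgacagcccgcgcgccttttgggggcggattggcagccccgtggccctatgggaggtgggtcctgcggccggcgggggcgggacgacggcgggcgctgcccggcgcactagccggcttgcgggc

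Levels per length ordered the genes as follows. In the 18 NC libraries of day 7 the median RPKM (CPM per kb of merged exons) was 16.7 for Tsc22d3 and 10.8 for Arrdc3. Nr3c1 had a median of 7.73 RPKM, Mt1 6.33, Fkbp5 4.48 and Ddit4 3.93 RPKM. The lowest were Mt2 at 3.29 RPKM, Cdkn1a at 3.15, Sgk1 at 2.47 and Zbtb16 at 1.84 RPKM. Neighbours in this order overlapped in their ranges over the 18 libraries: Tsc22d3 ran from 8.12 to 62.2 RPKM and Arrdc3 from 2.25 to 37.0 RPKM, and Sgk1 ran from 1.43 to 7.65 RPKM and Zbtb16 from 0.866 to 7.77 RPKM. Nr3c1 had the narrowest range, 5.78 to 8.35 RPKM, and Cdkn1a ran from 0.217 to 11.6 RPKM.

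The receptor gene Nr3c1 was lower in LPS than in NC livers on day 7. In CPM, NC libraries ranged from 44.4 over a median of 59.4 to 64.2, and LPS libraries from 34.8 over 47.4 to 60.2. The ranges overlapped, but only 2 of 18 LPS libraries lay above the NC mean of their own ZT, and the difference had the same sign at all 6 of 6 ZTs. Averaged over the 6 ZTs the log2 change was -0.25 ± 0.06 (SE; edgeR's quasi-likelihood test, Benjamini-Hochberg adjusted p = 0.00846), from 56.5 ± 6.56 to 47.5 ± 5.51 CPM (mean ± SD, n = 18 each). It passed in all 36 fits that left out 1 library each (adjusted p at most 0.0172). Without the 4 libraries that stood apart the log2 change was -0.20 and the adjusted p 0.0691. At each ZT alone it did not pass, the log2 changes ran from -0.38 at ZT1 to -0.12 at ZT5, and the groups did not overlap at ZT1, ZT13 and ZT17.

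Among the 10 genes the averaged effect called 2, Nr3c1 and Mt1, while 9.34% of the 16544 genes tested were called. Mt1 rose by 1.93 ± 0.51 on the log2 scale (adjusted p = 0.0219), but its mean of 228 ± 861 CPM in LPS libraries rested on 1 library, and without LPS ZT1 replicate 2 the log2 change was 0.67 with an adjusted p of 0.11. The other 8 did not pass. Mt2 had a log2 change of 2.00 ± 0.68 (adjusted p = 0.0616), which was 0.29 without that library, and Cdkn1a 0.69 ± 0.25 (adjusted p = 0.0790). Sgk1, Zbtb16 and Ddit4 had log2 changes of 0.45, 0.43 and 0.40, and those of Arrdc3, Tsc22d3 and Fkbp5 were 0.18, 0.10 and 0.06.

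**Figure D1:**
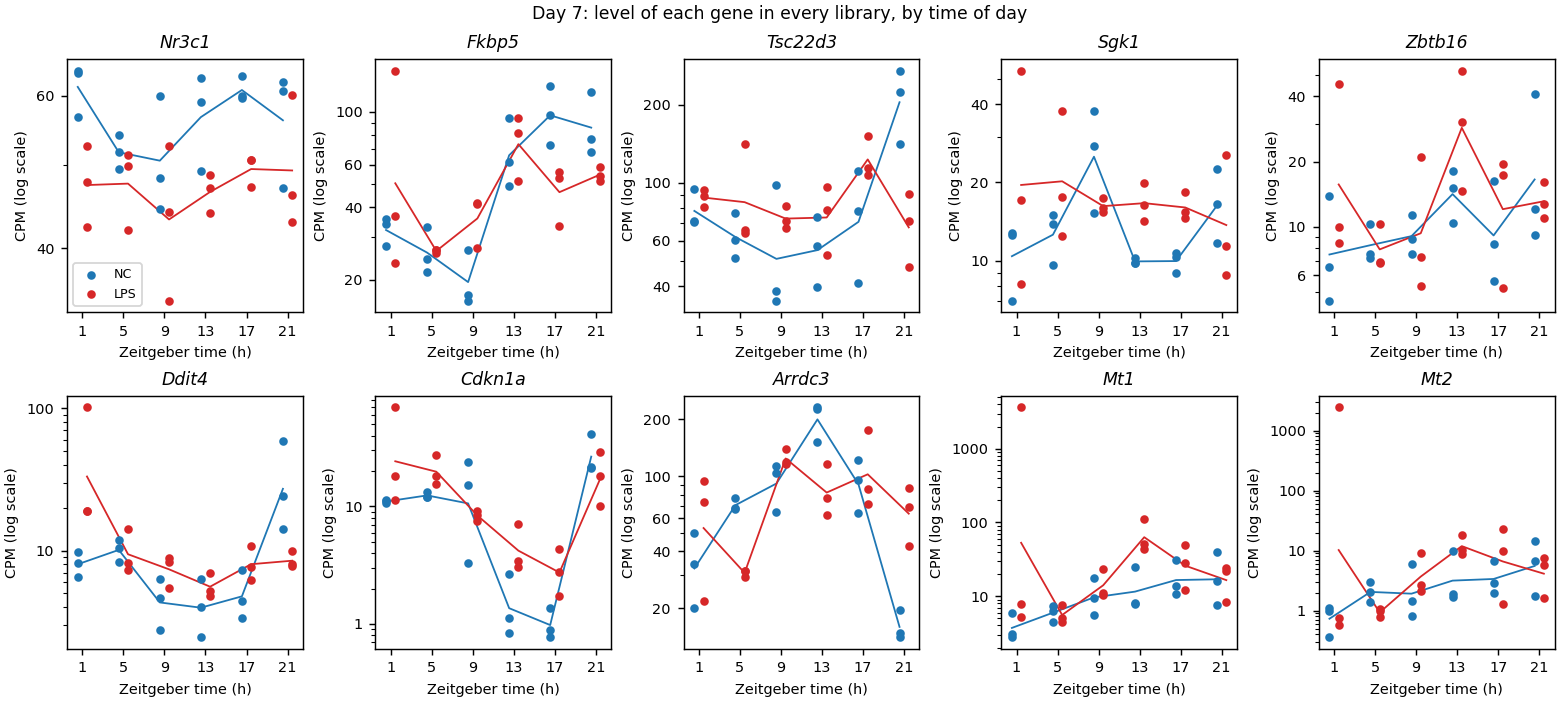
Level of each gene (CPM, log axis) in every day-7 library against Zeitgeber time, NC in blue and LPS in red, with lines through the geometric means of 3 libraries. Tsc22d3 and Ddit4 peak at ZT21 in NC and not in LPS, Arrdc3 reaches its NC minimum there, and a single LPS library at ZT1 reaches 3674 CPM of Mt1.

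In NC livers 5 of the 10 genes followed a 24 h cosine, Fkbp5, Tsc22d3, Ddit4, Cdkn1a and Arrdc3, against 22.5% of all genes tested. Fkbp5, the co-chaperone that lowers the hormone affinity of the receptor, rose from 16.4, 17.2 and 26.5 CPM at ZT9 to 72.4, 96.7 and 128 CPM at ZT17. These were its lowest and highest NC groups. The cosine had an amplitude of 1.19 on the log2 scale, a 5.22-fold range from trough to peak, with its peak at ZT17.9 (adjusted p = 0.000275). Tsc22d3, which encodes the anti-inflammatory leucine zipper protein GILZ, had 35.2, 38.5 and 97.8 CPM at ZT9 and 141, 224 and 270 CPM at ZT21. All 3 ZT21 libraries lay above every other NC library, and the fitted peak was at ZT21.25 with an amplitude of 0.81 (adjusted p = 0.00230).

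Ddit4, an inhibitor of mTORC1 signalling also called REDD1, had 2.46, 4.01 and 6.34 CPM at ZT13 and 14.1, 24.1 and 59.2 CPM at ZT21 in NC. Its amplitude was 1.27 and its peak at ZT22.9 (adjusted p = 0.00709, and 0.0563 without NC ZT21 replicate 2, the library at 59.2 CPM). Cdkn1a, which encodes the cyclin-dependent kinase inhibitor p21, was lowest at ZT17, with 0.771, 0.893 and 1.36 CPM, and had 21.1, 21.6 and 41.1 CPM 4 h later at ZT21. These were its lowest and highest NC groups. The cosine had an amplitude of 1.69 with a peak at ZT2.0 (adjusted p = 0.0446, past the threshold in 19 of 36 fits without 1 library, the highest being 0.114 without NC ZT13 replicate 1). Arrdc3, an alpha-arrestin adaptor for membrane receptors, ran the other way, from 14.1, 14.8 and 19.5 CPM at ZT21 to 151, 228 and 232 CPM at ZT13. Its amplitude was 1.45, a 7.44-fold range, with a peak at ZT11.4 (adjusted p = 0.000159). Nr3c1, Sgk1, Zbtb16, Mt1 and Mt2 did not pass in NC, with amplitudes of 0.12, 0.32, 0.49, 0.99 and 0.90. Mt1 passed in NC when LPS ZT1 replicate 2 was left out of the fit, at an amplitude of 0.98 and a peak at ZT16.5 (adjusted p = 0.0359).

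In LPS livers 4 genes passed, Ddit4, Cdkn1a, Mt1 and Mt2, against 16% of all genes. For Ddit4 (amplitude 1.25, adjusted p = 0.00554) and Cdkn1a (1.63, adjusted p = 0.0115) the call was lost without LPS ZT1 replicate 2, at adjusted p of 0.152 and 0.0616. For Mt1 and Mt2 the fitted peaks lay at ZT23.9 and ZT0.1 with all libraries (adjusted p = 0.0412 and 0.0132) and at ZT14.8 and ZT15.0 without it (adjusted p = 0.000357 and 0.00329). With it, Mt1 passed in 28 of 36 fits without 1 library, the highest adjusted p being 0.0645 without LPS ZT9 replicate 3. Without that library Fkbp5 also passed in LPS, at an amplitude of 0.68 and a peak at ZT15.7 (adjusted p = 0.00517). Tsc22d3 and Arrdc3 had amplitudes of 0.15 and 0.62 in LPS (adjusted p = 0.835 and 0.144).

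The difference in rhythm between the arms was tested directly and none of the 10 genes passed, against 0.169% of all genes. By edgeR's test 5 members had an unadjusted p under 0.05, beside 2442 of the 16544 genes tested. The 5 were Arrdc3 (0.0116), Mt2 (0.0213), Tsc22d3 (0.0301), Mt1 (0.0366) and Fkbp5 (0.0471). DESeq2 and limma-voom also called 0. A loss of the Tsc22d3 or Arrdc3 rhythm under LPS was therefore not shown by this test.

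**Figure D2:**
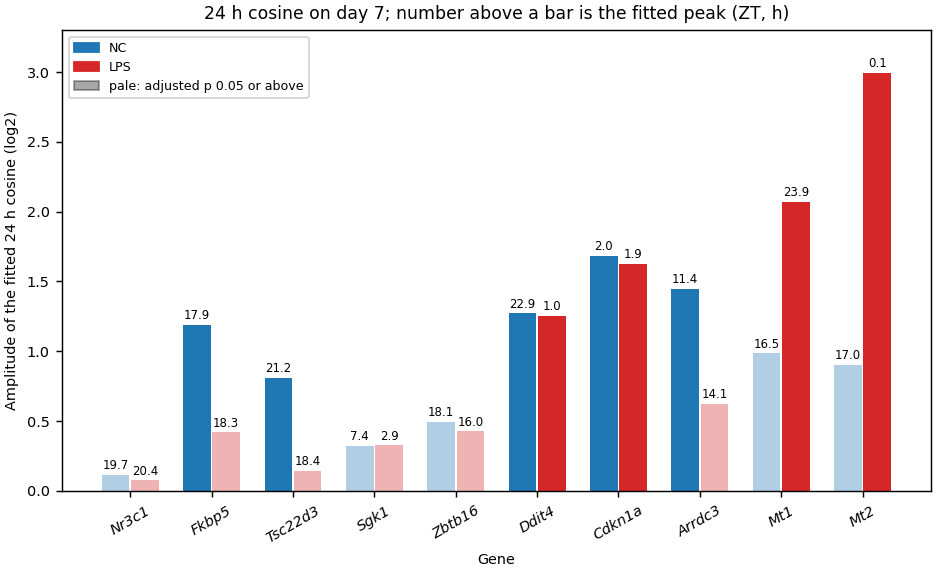
Amplitude (log2) of the 24 h cosine of each gene on day 7 in NC (blue) and LPS (red), with the fitted peak in ZT hours above each bar and pale bars where the adjusted p was 0.05 or above. Tsc22d3 stands at 0.81 in NC and 0.15 in LPS and Arrdc3 at 1.45 and 0.62, and the bars of Mt1 and Mt2 in LPS include the ZT1 library at 3674 and 2458 CPM.

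Whether the LPS effect changed with time of day was asked by the interaction of treatment with ZT, which called 2 of the 10 genes, Arrdc3 (adjusted p = 0.0158) and Ddit4 (0.0320), against 1.7% of all genes. Arrdc3 kept the call in all 36 fits without 1 library. In LPS, Arrdc3 had 42.6, 68.9 and 86.9 CPM at ZT21, all above the NC libraries at 14.1 to 19.5 CPM, and 62.3, 76.5 and 116 CPM at ZT13, all below the NC libraries at 151 to 232 CPM. It rose at ZT21, by 2.05 ± 0.41 on the log2 scale (adjusted p = 0.00529), and its log2 change at ZT13, -1.25 ± 0.40, did not pass (adjusted p = 0.0777). DESeq2 called Arrdc3 at ZT13 as well (adjusted p = 0.0213), among 1067 genes against 526 by edgeR's test. At ZT5 the LPS libraries, 29.4, 31.5 and 31.6 CPM, lay below the NC libraries at 67.3, 67.5 and 76.5 CPM, a log2 change of -1.19 ± 0.40 that did not pass (adjusted p = 0.419).

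Ddit4 moved in opposite directions at neighbouring times. At ZT1 its LPS libraries had 18.9, 19.0 and 102 CPM against 6.48, 8.12 and 9.80 CPM in NC, and at ZT21 they had 7.75, 8.01 and 9.89 CPM against 14.1, 24.1 and 59.2 CPM. Neither pair of groups overlapped. The log2 change was 2.52 ± 0.54 at ZT1 (adjusted p = 0.0470) and -1.91 ± 0.53 at ZT21 (adjusted p = 0.0261). The ZT1 call was made in 3 of 36 fits without 1 library, and without LPS ZT1 replicate 2 the log2 change was 1.21 (adjusted p = 0.582). At ZT21 the call was lost without LPS replicate 1 (adjusted p = 0.137), LPS replicate 3 (0.0897) or NC replicate 2, where the log2 change was -1.15 (0.237). The interaction passed in 28 of 36 such fits, the highest adjusted p being 0.0904 without NC ZT21 replicate 2.

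At ZT21 Tsc22d3 fell with LPS on day 7, to 47.4, 71.5 and 90.4 CPM from 141 to 270 CPM in NC. The groups did not overlap, and the log2 change was -1.59 ± 0.38 (adjusted p = 0.0126). The call was lost without NC replicate 2 (adjusted p = 0.0736) or LPS replicate 1 (0.109). Counted over the 10 genes, ZT21 thus gave 3 calls, Tsc22d3 and Ddit4 lower and Arrdc3 higher, against 8.9% of all genes. Without the 4 libraries that stood apart, 2 of which belong to this ZT, none of the 3 passed by edgeR's test, and 2 genes were called in all. The log2 changes were then -1.56 for Tsc22d3, -2.02 for Ddit4 and 2.09 for Arrdc3, with 1 LPS library left at this ZT.

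At ZT1, 3 of the 10 genes were called, all higher, against 0.357% of all genes, and none of the 3 calls held without LPS ZT1 replicate 2. With that library included DESeq2 called Ddit4 there, among 301 genes against 59 by edgeR's test. It gave no p for Mt1 and Mt2. At ZT5 (0.0121% of all genes), ZT9 (0.453%), ZT13 (3.18%) and ZT17 (0%) no member was called by edgeR's test. By the same test 1, 0, 3 and 3 members had an unadjusted p under 0.05. So had 1279, 1969, 3393 and 1475 of the 16544 genes tested. At ZT17 Fkbp5 had 33.4, 52.9 and 55.8 CPM in LPS, all below the 72.4 to 128 CPM of NC, at a log2 change of -1.07 ± 0.42 (adjusted p = 0.453). Cdkn1a at ZT17 had 1.73, 2.76 and 4.31 CPM in LPS, all above the NC libraries at 0.771 to 1.36 CPM, with a log2 change of 1.53 ± 0.71 (adjusted p = 0.526).

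LPS ZT1 replicate 2, which is among the 4 libraries that stood apart, was the highest of the 36 day-7 libraries for 6 of the 10 genes. The share of all genes highest in this library is not given here, so the count is not a trait of these genes. Mt1, which encodes a zinc and copper binding protein, had 3674 CPM there against 5.18 and 7.83 CPM in the other LPS ZT1 libraries, and Mt2 had 2458 CPM against 0.586 and 0.740 CPM. In that library Ddit4 had 102 CPM, 5.38 times the mean of the other LPS ZT1 libraries, Fkbp5 had 148 CPM (4.92 times), Cdkn1a 70.0 CPM (4.78 times) and Sgk1 53.8 CPM (4.27 times). Zbtb16, a zinc finger transcription factor, had 45.9 CPM (4.97 times) and was the second highest of the 36. Nr3c1 (47.7 CPM) and Tsc22d3 (80.7 CPM) lay within the range of the other ZT1 libraries, and Arrdc3 (21.8 CPM) was 0.260 times the mean of the other LPS ZT1 libraries. The high acute-phase and neutrophil sums given above belong to this same library, and their part in these values was not tested. The 2 remaining LPS ZT1 libraries gave a log2 change of 0.71 for Mt1 (adjusted p = 0.888) and -0.32 for Mt2 (0.981).

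**Figure D3:**
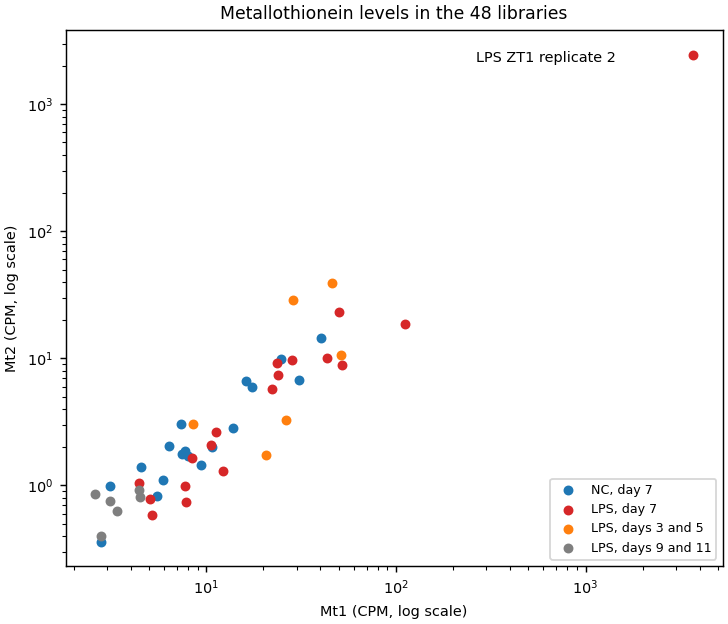
Mt1 against Mt2 (CPM, log axes) in the 48 libraries, coloured by arm and day. The points rise together over the whole range, the libraries of days 9 and 11 sit at 4.49 CPM of Mt1 or less, and LPS ZT1 replicate 2 stands alone at the top right.

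The 2 metallothionein genes lie next to each other on chromosome 8 (Mt2 at 94172664 to 94173568 and Mt1 at 94179082 to 94180327, GRCm38) and moved together, with a Spearman rho of 0.93 over the 16 group means, which share libraries and depth. Their main transcripts were 74.2% identical over 306 aligned bases and shared no identical run above 20 bases. Mt2 overlaps 432 exonic bases of the antisense gene Gm45774, and Cdkn1a 273 exonic bases of AC167363.2. The kit marked strand, but the sources do not say whether the counting used it or how reads matching both metallothioneins were treated.

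**Figure D4:**
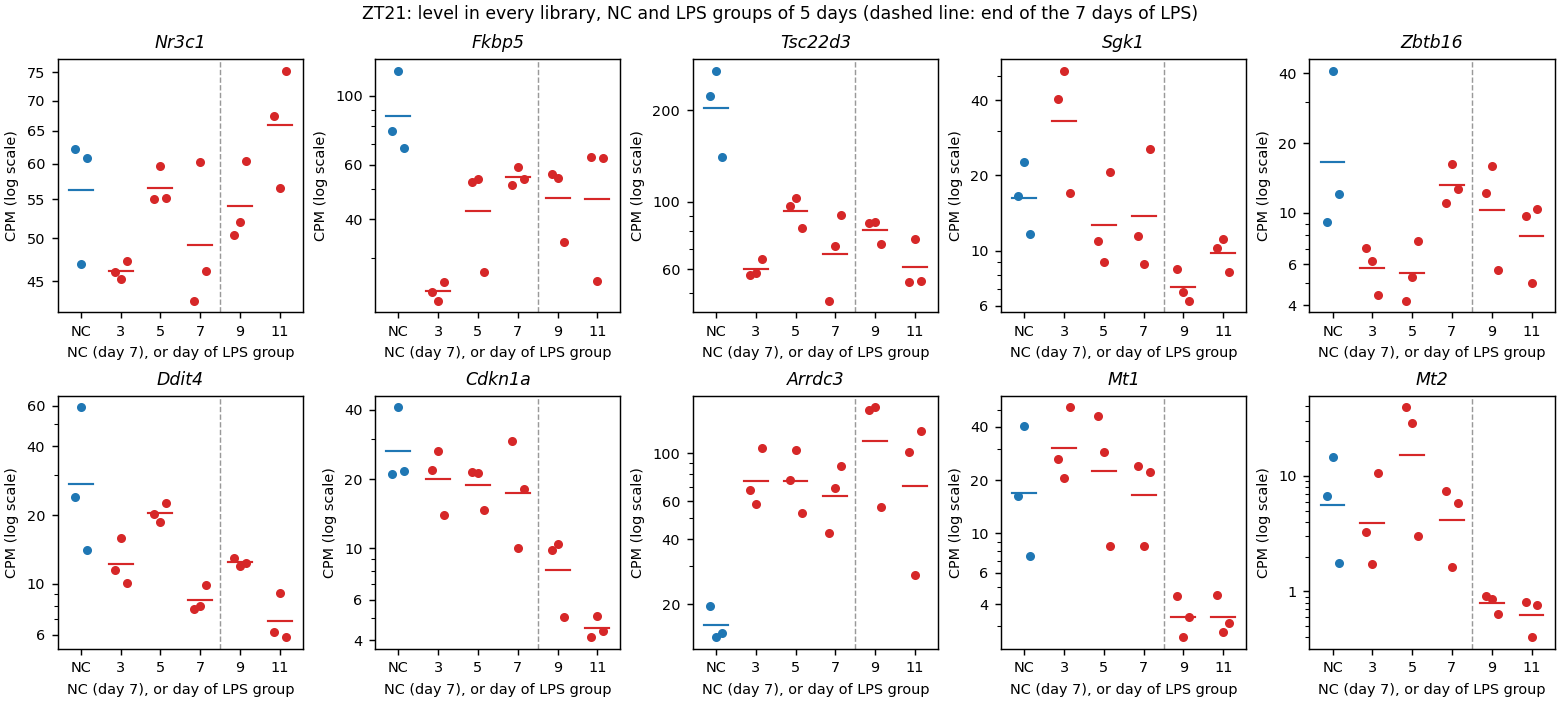
Level of each gene (CPM, log axis) in every ZT21 library, NC of day 7 in blue and LPS of days 3 to 11 in red, with bars at the geometric mean of 3 libraries and a dashed line at the end of the 7 days of LPS. Tsc22d3 is lower and Arrdc3 higher than NC on all 5 days, and Mt1, Mt2 and Cdkn1a are at their lowest on days 9 and 11.

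The time course at ZT21 asked how the genes stood on days 3, 5, 7, 9 and 11 of the LPS series. All 5 comparisons use the same 3 NC libraries of day 7, so a value of these libraries enters each of them. The log2 changes of Fkbp5, Tsc22d3, Zbtb16, Ddit4 and Cdkn1a were negative on all 5 days. Tsc22d3 was the only member called on every day. Its LPS libraries had 57.4, 58.2 and 64.9 CPM on day 3, 82.1, 96.9 and 103 CPM on day 5, 72.5, 85.1 and 85.9 CPM on day 9 and 54.4, 55.1 and 75.3 CPM on day 11. All lay below the lowest NC library at 141 CPM. The log2 changes were -1.82 ± 0.23 on day 3 (adjusted p = 9.7e-05), -1.17 ± 0.23 on day 5 (0.00532), -1.60 ± 0.23 on day 7 (0.00411), -1.38 ± 0.23 on day 9 (0.0114) and -1.78 ± 0.23 on day 11 (0.00445). The day 9 call was lost without NC replicate 2 (adjusted p = 0.0742), LPS replicate 1 (0.0740) or LPS replicate 2 (0.0625), and the day 11 call without LPS replicate 3 (0.0600).

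Arrdc3 rose on days 3, 5, 7 and 9. It had 58.0, 67.5 and 105 CPM on day 3, 52.9, 75.5 and 103 CPM on day 5, 56.5, 159 and 163 CPM on day 9 and 27.4, 102 and 127 CPM on day 11. Every LPS library lay above the NC range of 14.1 to 19.5 CPM. The log2 changes were 2.25 ± 0.54 on day 3 (adjusted p = 0.0107), 2.26 ± 0.54 on day 5 (0.0190), 2.04 ± 0.54 on day 7 (0.0338), 2.96 ± 0.55 on day 9 (0.0379) and 2.40 ± 0.54 on day 11 (0.106). The day 9 call was made in 8 of 18 fits without 1 library, with a highest adjusted p of 0.212 without NC replicate 2. On day 5 the call was lost without NC replicate 2 (0.0831), NC replicate 3 (0.0645), LPS replicate 1 (0.0541) or LPS replicate 2 (0.0762), and on day 7 it was made in 13 of 18 fits, with a highest adjusted p of 0.128 without LPS replicate 3.

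Fkbp5 and Zbtb16 were lowest early in the series. Fkbp5 had 21.9, 23.4 and 25.1 CPM on day 3 against 67.8, 77.2 and 120.4 CPM in NC, without overlap, at a log2 change of -1.92 ± 0.35 (adjusted p = 0.00169), and its log2 changes on the later days, -0.99 to -0.69, did not pass although all LPS libraries stayed below NC at ZT21. Zbtb16 had 4.44, 6.19 and 7.04 CPM on day 3 and 4.19, 5.31 and 7.59 CPM on day 5, below the NC libraries at 9.16, 12.1 and 41.0 CPM. Its log2 change was -1.82 ± 0.52 on day 3 (adjusted p = 0.0253) and -1.86 ± 0.52 on day 5 (0.0358). Without NC replicate 2, the library at 41.0 CPM, these values were -0.86 (0.166) and -0.90 (0.203). The day 3 call was also lost without any 1 of the day 3 libraries (0.0536 to 0.0890), and the day 5 call without LPS replicate 1 (0.138) or 2 (0.126). NC replicate 2 was the highest of its group for 8 of the 10 genes, and the share over all genes is not given here.

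Ddit4 passed on days 3, 7 and 11. Its LPS libraries had 10.1, 11.5 and 15.9 CPM on day 3, 18.7, 20.2 and 22.6 CPM on day 5, 12.03 to 12.97 CPM on day 9 and 5.85, 6.13 and 9.11 CPM on day 11. The day 3 and day 5 groups overlapped with NC (14.1 to 59.2 CPM), and those of days 7, 9 and 11 did not. The log2 changes were -1.38 ± 0.37 on day 3 (adjusted p = 0.0178), -1.92 ± 0.38 on day 7 (0.0121) and -2.21 ± 0.39 on day 11 (0.0301). Without NC replicate 2 the day 3 value was -0.62 (0.0893), the day 7 value -1.16 and the day 11 value -1.44, the last 2 still past the threshold. The day 3 call was also lost without LPS replicate 1 (0.0623) or 3 (0.0696), the day 7 call without LPS replicate 1 (0.0633) or 3 (0.0503), and the day 11 call in 7 of 18 fits (highest adjusted p = 0.180 without LPS replicate 1). Between successive LPS days Ddit4 also fell from day 5 to day 7, by 1.26 ± 0.38 on the log2 scale (adjusted p = 0.0492, past the threshold in 2 of 18 fits without 1 library, the highest being 0.150 without LPS day 7 replicate 1).

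Cdkn1a fell late. It had 13.9, 22.0 and 26.6 CPM on day 3, 14.7, 21.3 and 21.6 CPM on day 5, 10.03, 18.0 and 29.2 CPM on day 7, 5.04, 9.87 and 10.4 CPM on day 9 and 4.12, 4.37 and 5.10 CPM on day 11. The day 11 libraries lay below all NC libraries (21.1, 21.6 and 41.1 CPM), at a log2 change of -2.62 ± 0.41 (adjusted p = 0.0174). The day 9 libraries did so too, at -1.73 ± 0.39 (adjusted p = 0.0855). The day 11 call passed in 14 of 18 fits without 1 library, and the call was lost without NC replicate 2 (-2.24, adjusted p = 0.0801) or without LPS replicate 1 (0.121), 2 (0.0517) or 3 (0.102).

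The call rates over all genes on these days were 20.5% on day 3 with 5 members called, 11.6% on day 5 with 3, 9.42% on day 7 with 3, 0.429% on day 9 with 2 and 0.261% on day 11 with 3. On day 3 the calls were 4 lower and 1 higher, on days 5 and 7 both 2 lower and 1 higher, on day 9 1 lower and 1 higher and on day 11 3 lower. The median of all genes moved by less than 0.1 on the log2 scale on each day.

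In a contrast that uses no NC level, 6 of the 10 genes differed among the 5 LPS days, against 27.4% of all genes: Cdkn1a (adjusted p = 0.00501), Mt2 (0.00749), Mt1 (0.00794), Sgk1 (0.00984), Ddit4 (0.0369) and Nr3c1 (0.0461). Mt1 had 8.46 to 51.5 CPM in the 9 libraries of days 3, 5 and 7 and 2.60 to 4.49 CPM in the 6 libraries of days 9 and 11, and Mt2 had 1.64 to 39.4 CPM and then 0.401 to 0.915 CPM. Neither gene overlapped between these sets of days, and the days 9 and 11 values lay below every NC ZT21 library, from 7.49 CPM of Mt1 and 1.78 CPM of Mt2. Against NC the log2 changes of Mt1 were -2.62 ± 0.71 on day 9 (adjusted p = 0.159) and -2.62 ± 0.72 on day 11 (0.237). DESeq2 called Mt1 and Mt2 on both days, on which it called 301 and 164 genes against 69 and 42 by edgeR's test. By edgeR's test Mt1 and Mt2 were called among the days in all 18 fits without 1 library.

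Sgk1, a kinase first known for its induction by serum and glucocorticoids, was highest on day 3, at 16.99, 40.4 and 52.5 CPM, and lowest on day 9, at 6.30, 6.85 and 8.45 CPM. Its difference among days was lost without day 3 replicate 2 (adjusted p = 0.0527), and that of Ddit4 in 12 of 18 fits (highest 0.0889 without day 5 replicate 3). Nr3c1 had 45.3, 46.0 and 47.3 CPM on day 3 and 56.5, 67.4 and 75.3 CPM on day 11, its lowest and highest days. Its difference among days passed in 5 of 18 fits without 1 library (highest adjusted p = 0.160 without day 11 replicate 3). Step by step, 0 members were called from day 3 to 5 (5.91% of all genes) and 1 from day 5 to 7 (9.55%). From day 7 to 9 (6.73%) and from day 9 to 11 (0.0124%) 0 were called. By edgeR's test 5, 3, 4 and 3 members had an unadjusted p under 0.05 in these steps. So had 3217, 3935, 3921 and 954 of the 16101 genes tested.

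Clock genes and immune cell markers moved beside these values. The 12 neutrophil markers summed to 1.87 to 2.89 CPM in NC at ZT21, with 5 of them at 0, and to 27.0 to 34.6 CPM on day 3 and 5.97 to 11.5 CPM on day 11. The 12 Kupffer cell markers summed to 212 to 325 CPM in NC and to 768 to 934 CPM on day 3. The part of these cells in the changes was not tested. Per1, a clock gene that the receptor also induces, had 61.6 to 70.6 CPM in NC at ZT21 but 2.15 to 3.62 CPM on day 3, 3.95 to 12.2 on day 5, 34.1 to 42.3 on day 7, 10.2 to 23.1 on day 9 and 12.5 to 15.5 CPM on day 11. NC libraries had 12.3 to 23.5 CPM of Per1 at ZT1 and 3.77 to 4.89 CPM at ZT5. Dbp, an output gene of the clock, had 4.31 to 7.08 CPM in NC at ZT21, 1.88 to 4.32 CPM on day 3, 1.11 to 1.78 on day 5, 11.1 to 71.1 on day 7, 3.47 to 6.24 on day 9 and 4.84 to 5.36 CPM on day 11. NC libraries had 2.03 to 3.17 CPM of Dbp at ZT1 and 1.26 to 2.06 CPM at ZT5, so on days 9 and 11 Per1 lay near NC ZT1 while Dbp lay above NC ZT1 and near NC ZT21. A comparison with NC livers of another ZT was made as an alternative, day 3 against ZT5 and days 5, 9 and 11 against ZT1, in a single fit of all 48 libraries. Day 7 was compared at ZT21 only. The choice of ZT came from earlier results of these data for days 3 and 5, and from the Per1 values alone for days 9 and 11. Since the receptor also induces Per1, a ZT chosen by its level is not independent of the receptor targets. Small changes of these targets against NC ZT1 on days 9 and 11 may therefore be built into the choice.

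In those comparisons only 1 member was called. Sgk1 was higher on day 3 than in NC at ZT5 (9.60, 13.8 and 15.0 CPM), without overlap, at a log2 change of 1.51 ± 0.47 (adjusted p = 0.0457), against 7.31% of all genes. On day 5 no member was called against NC ZT1 (3.12% of all genes), and on days 9 and 11 none was called and no gene was (0% on each day, with 1197 and 680 genes at an unadjusted p under 0.05). By edgeR's test 4, 1 and 2 members had an unadjusted p under 0.05 on days 5, 9 and 11. So had 2874, 1197 and 680 of the 16858 genes tested. The log2 changes of Tsc22d3 were -0.06 ± 0.33, 0.26 ± 0.33, 0.04 ± 0.33 and -0.35 ± 0.34 on days 3, 5, 9 and 11, beside -1.82, -1.17, -1.38 and -1.78 against NC ZT21. Its NC group means were 56.9 to 78.7 CPM from ZT1 to ZT17 against 211 CPM at ZT21, so these values do not single out ZT1 or ZT5. Fkbp5 had log2 changes of -0.17 ± 0.42, 0.46 ± 0.42, 0.57 ± 0.42 and 0.65 ± 0.42 on these days, so that its sign on days 5, 9 and 11 was opposite to that against NC ZT21. For Ddit4 they were 0.29 ± 0.47, 1.33 ± 0.47, 0.61 ± 0.47 and -0.21 ± 0.48. Those of Cdkn1a were 0.75 ± 0.52, 0.80 ± 0.53, -0.38 ± 0.53 and -1.28 ± 0.55, and on day 11 its LPS libraries still lay below all NC ZT1 libraries (10.7, 11.0 and 11.3 CPM). Mt1 had log2 changes of 2.43 ± 1.16 on day 3 and 2.81 ± 1.199 on day 5, both without overlap. Against NC ZT21 these were smaller, 0.62 and 0.39. On days 9 and 11 Mt1 had log2 changes of -0.19 ± 1.21 and -0.19 ± 1.22. Mt2 on day 5 had a log2 change of 4.84 ± 1.71, also without overlap, beside 1.64 against NC ZT21. Zbtb16 had log2 changes of 0.44 ± 0.62 on day 9 and 0.01 ± 0.62 on day 11, and Mt2 one of 1.28 ± 1.50 on day 3, each opposite in sign to the value against NC ZT21. None of these values passed. Arrdc3 on day 3 had a log2 change of 0.13 ± 0.46. Its log2 change was 1.15 ± 0.47 on day 5, without overlap, and 1.297 ± 0.47 on day 11, with overlap, and neither passed. Arrdc3 on day 9 had a log2 change of 1.86 ± 0.48 with 3 LPS libraries above all NC ZT1 libraries (20.2, 34.2 and 49.8 CPM), and it did not pass (adjusted p = 0.338). Which part of the ZT21 changes moved with the time shown by the clock genes cannot be told apart from LPS itself, since NC livers of days 3, 5, 9 and 11 are not analysed here.

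**Figure D5:**
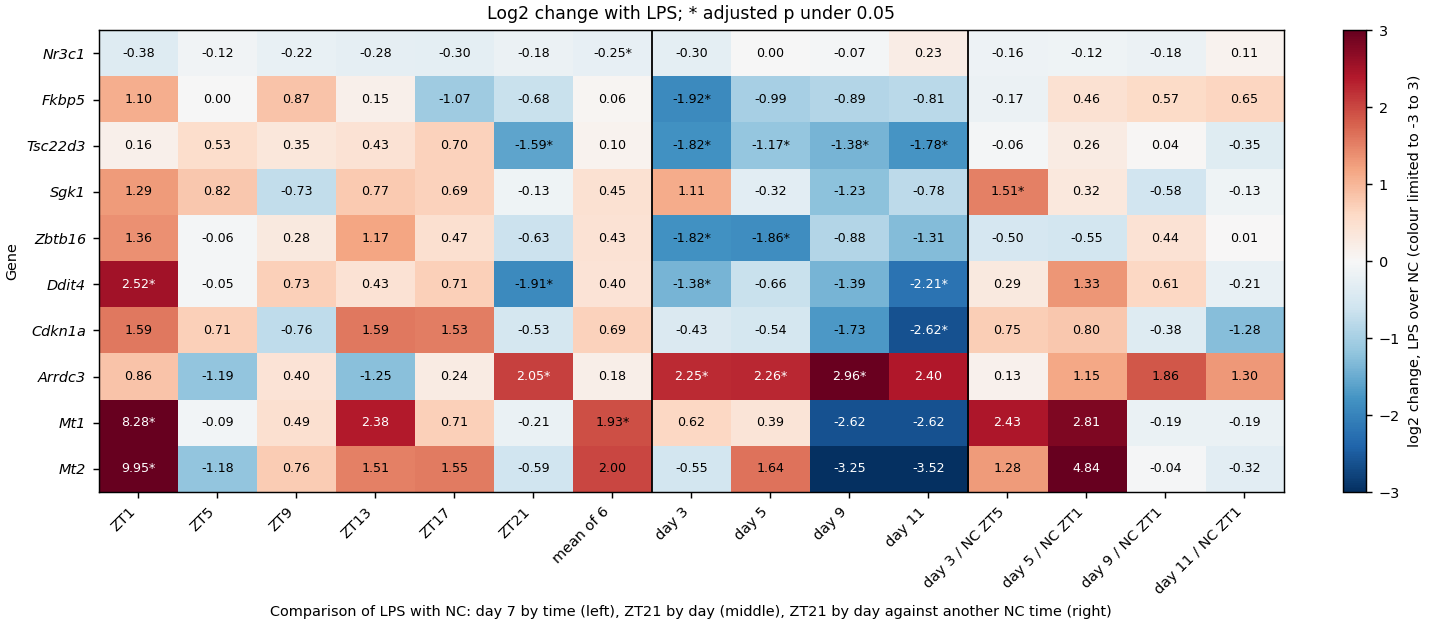
Log2 change with LPS for the 10 genes, by ZT on day 7 (left), by day at ZT21 against NC ZT21 (middle) and by day against another NC time (right), with colour limited to -3 to 3 and asterisks at adjusted p under 0.05. The values of Tsc22d3 in the middle, -1.82 to -1.17, become -0.35 to 0.26 on the right, and Sgk1 on day 3 carries the only asterisk there. Tsc22d3 in NC was higher at ZT21 than at any other ZT, so its change between the panels does not single out the ZTs used.

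Other glucocorticoid-responsive genes, 24 in number and all tested, gave 0 higher and 11 lower on day 3, 1 higher and 11 lower on day 5, 0 and 8 on day 7, 0 and 5 on day 9 and 0 and 5 on day 11. Over all genes the share called was 20.5% on day 3, 11.6% on day 5, 9.42% on day 7, 0.429% on day 9 and 0.261% on day 11, which is also the background of the other lists at ZT21. The median log2 change of the 24 genes was -0.75 on day 3 and -0.84 on day 9, against a median of 0.01 over all genes tested on each of these days. The genes that changed most on day 3 were Per1 (-4.60 ± 0.40), Lpin1, a phosphatidate phosphatase (-4.49 ± 0.47), Angptl4, an inhibitor of lipoprotein lipase (-3.99 ± 0.48), and the stress gene Gadd45g (-2.86 ± 0.95). On day 7 Irs2, an insulin receptor substrate, fell by 1.84 ± 0.34 on the log2 scale, and Tat, which begins tyrosine breakdown, fell by 1.36 ± 0.28. Against the other NC times 1 rose and 1 fell on day 3, Tdo2, which begins tryptophan breakdown (0.60 ± 0.18), and Angptl4 (-3.50 ± 0.58), and none passed on days 5, 9 and 11, with medians of -0.22, -0.04 and -0.09. This list holds Per1, by which NC ZT1 was chosen for days 9 and 11. Averaged over day 7, where 9.34% of all genes were called, 2 rose, Per1 (0.65 ± 0.21) and the sulfotransferase gene Sult1a1 (0.36 ± 0.10), and 0 fell.

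Chaperones and genes of hormone supply, 11 in number, gave 4 lower and 0 higher in the averaged effect on day 7, where the median was -0.13 against 0.01 over all genes and 9.34% of all genes were called. Those that fell were Hsp90aa1 (-0.35 ± 0.09), Hsp90ab1 (-0.24 ± 0.05), Stip1 (-0.17 ± 0.05) and Ptges3 (-0.16 ± 0.04), all parts of the chaperone complex that holds the receptor. At ZT21, 4 were lower on day 3, with Hsp90aa1 at -0.90 ± 0.26 and Fkbp4 at -0.56 ± 0.18, and 0 were lower on days 5, 7, 9 and 11 by edgeR's test on the ZT21 libraries. Against NC ZT5 none of the 11 passed edgeR's test on day 3, with a median of -0.19. In the fit of the ZT21 libraries Serpina6, which encodes the hormone's carrier protein in blood, was higher on day 7 at 0.75 ± 0.18 (adjusted p = 0.0192). The fit of the day-7 libraries called 0 higher and 1 lower of the list at ZT21, so this call depended on the fit.

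Growth arrest genes and p53 targets beside Cdkn1a, 18 in number, gave 4 higher and 1 lower in the averaged effect, with a median of 0.08 against 0.01 over all genes, beside 9.34% of all genes called. Named by size these were Eda2r (1.34 ± 0.34), Phlda3 (0.86 ± 0.23) and Cdkn2c, an inhibitor of cyclin-dependent kinases 4 and 6 (0.63 ± 0.14), higher, and the cyclin gene Ccng2 (-0.50 ± 0.11), lower. At ZT21 on day 7 Gadd45a rose by 2.41 ± 0.50, and 5 genes were higher and 1 lower in the fit of the ZT21 libraries. In the same ZT21 libraries the 24 proliferation genes summed to 145 to 955 CPM in LPS on day 7 against 69.1 to 119 CPM in NC, the 2 highest being the LPS libraries that stood apart, and their part in these changes was not tested. On days 9 and 11 no gene of the list passed by edgeR's test. On day 3 the list gave 1 higher and 0 lower against NC ZT21 and 0 higher and 1 lower against NC ZT5, and on day 5 it gave 2 and 2 against NC ZT21 and 1 and 1 against NC ZT1.

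FOXO and thioredoxin-binding family genes, relatives of Arrdc3 among them, numbered 10. On day 5, 2 were higher and 4 lower: the alpha-arrestin Arrdc4 (1.25 ± 0.25) and the pseudokinase Trib3 (1.23 ± 0.37) rose, and Arrdc2 (-1.09 ± 0.20) and the transcription factor Foxo3 (-1.02 ± 0.13) fell. Arrdc2 was also lower on days 3 and 7, at -0.90 ± 0.20 and -0.78 ± 0.20, days on which Arrdc3 was higher. The median of the list on day 5 was -0.08 against 0.02 over all genes. Against NC ZT1, 2 were higher and 0 lower on day 5, Trib3 (1.64 ± 0.40) and Arrdc4 (1.41 ± 0.31), and against NC ZT5 none passed on day 3.

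Metal handling genes, 11 listed and 10 tested, gave 3 higher and 2 lower on day 3, 4 higher and 1 lower on day 5 and 0 on days 7, 9 and 11. Hmox1, which breaks down heme, rose by 1.24 ± 0.19 on day 3. On day 5 the zinc and manganese exporters Slc30a1 (0.78 ± 0.16) and Slc30a10 (1.31 ± 0.16) rose with the copper protein gene Cp (0.57 ± 0.10), while Mt1 and Mt2 had log2 changes of 0.39 ± 0.64 and 1.64 ± 0.89 that did not pass. The median of the list was 0.26 on day 5 against 0.02 over all genes. Against the other NC times 0 were higher and 1 lower on day 3, the zinc importer gene Slc39a4 (-0.83 ± 0.18), and 2 higher and 0 lower on day 5, Slc30a10 (0.67 ± 0.18) and Slc30a1 (0.63 ± 0.17). The averaged effect called 0 of the 10 on day 7 by edgeR's test.

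Genes whose group means followed a member most closely over the 16 groups are named as a description, with Spearman's rho. They were Chd7 and Uck2 (0.91 each) and Lpin1 (0.91) for Fkbp5, Slc29a1 (0.86) for Tsc22d3, Nags (0.91) for Ddit4, Clic4 (0.91) for Cdkn1a, Ugt2a3 (0.94) for Nr3c1, Tm4sf4 (0.88) for Sgk1, Hip1r (0.89) for Zbtb16, Ecpas (0.88) for Arrdc3 and A2ml1 (0.91) for Mt1 after Mt2. Among the members themselves Ddit4 and Cdkn1a had a rho of 0.79 and Fkbp5 and Zbtb16 of 0.71, while Nr3c1 and Sgk1 had -0.75 and Cdkn1a and Arrdc3 -0.73. The group means share libraries and depth, so these values describe likeness only.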

How the data were processed

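Per the labels' protocols, messenger RNA from liver was captured on oligo(dT) beads, made into strand-marked libraries and sequenced from both ends. The authors deposited raw counts, whole numbers for each gene symbol. Per the submitters' processing notes, the build was GRCm38 and the tools were STAR 2.5.2b, StringTie 2.2.1, SAMtools 1.3.1, FastQC 0.11.5 and DESeq2 1.38.1. The counting step is not given in the sources used here, nor are its strand setting and annotation. Depth per library was 28.2 to 45.3 M counts.

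Tests used edgeR 4.0.16 under R 4.3.3 (filterByExpr, TMM, robust quasi-likelihood test, Benjamini-Hochberg over all genes tested, threshold 0.05), with 1 mean per group: 36 day-7 libraries (16544 genes, 24 residual degrees of freedom), 18 ZT21 libraries (16101 genes, 12) and all 48 (16858 genes, 32). Rhythms came from a mean, cosine and sine per arm. Each log2 change is given with its standard error. CPM are counts scaled with TMM factors, and RPKM divide them by merged exon length. The fits were also run on simulated counts with known changes, drawn without libraries that stand apart. The outcome is not given here and does not bear on results that turn on single libraries. Alternatives were RLE scaling, no filter, a replicate block, DESeq2 1.42.0, limma 3.58.1 (voom), other sets of libraries and each library left out in turn. The comparison of days 9 and 11 with NC ZT1 was chosen after seeing the data. Proteins of Mt1 and Mt2 were not compared, and transcripts were aligned with Biopython in their place.

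The members, the gene lists and the libraries called apart were chosen with earlier results of these data known. Named genes were all members and, of each list, at most the 4 largest changes past the threshold, plus Per1, Dbp and Arntl beside the ZT21 results.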

Additional observations from a re-analysis of the deposited data

Results flagged for a closer look

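The LPS effect differed between times of day, by the interaction of treatment with ZT in edgeR's quasi-likelihood test, for Ddit4 (adjusted p = 0.0320) and Arrdc3 (adjusted p = 0.0158). Levels differed among the 5 LPS days at ZT21, by the test of any difference among them, for Nr3c1 (adjusted p = 0.0461), Sgk1 (0.00984), Ddit4 (0.0369), Cdkn1a (0.00501), Mt1 (0.00794) and Mt2 (0.00749). Of these, Arrdc3, Cdkn1a, Mt1 and Mt2 passed in every fit that left out 1 library, and the others did not.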

How the results depend on the processing

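Calls over the 10 genes changed as follows. The averaged effect (2) gave 0 without the 4 LPS libraries that stood apart and 4 with all 48 libraries in a single fit, and 1 to 4 when each library was left out. The calls at the 6 ZTs (6) became 3 without a filter, 3 with the replicate block, 0 without the libraries apart and 2 from the 6 libraries of 1 ZT alone (1 to 7 leaving out each library). The interaction (2) gave 1 without a filter, 4 with DESeq2, 1 without the libraries apart and 4 with all 48 (1 to 5). The rhythm in NC (5) moved only within 4 to 6 and the difference in rhythm stayed at 0 in every setting tried, and the rhythm in LPS (4) gave 2 with the replicate block, DESeq2 or limma-voom (3 to 4). The 5 days against NC (16) gave 25 with DESeq2 and 6 from the 6 libraries of 1 day and NC alone. They gave 7 with NC ZT5 on day 3 and NC ZT1 on day 5, and 4 with NC ZT1 on days 9 and 11 as well. Leaving out each library gave 8 to 17, the 8 without NC ZT21 replicate 2. The difference among days (6) moved within 4 to 7, and the successive days (1) gave 0 with RLE scaling, without a filter, without the libraries apart or with all 48, 2 with the replicate block and 6 with DESeq2 (0 to 4). Of the averaged effects and of the values called, signs turned as follows. Fkbp5 averaged over day 7 was -0.087 without the libraries apart. Over the fits without 1 library it ran from -0.14 without LPS ZT1 replicate 2 to 0.131. Mt2 averaged was -0.051 without the libraries apart. Mt2 at ZT1 was -0.31 without the libraries apart and ran from -0.32 without LPS ZT1 replicate 2 to 10.54. Ddit4 on day 3 was 0.29 against NC ZT5. Against NC ZT1, Tsc22d3 was 0.26 on day 5 and 0.044 on day 9. Uncalled values of other members turned too against those NC times, Fkbp5 on days 5, 9 and 11 among them. The cause of these changes was not tested. DESeq2 gave no p for Mt1 and Mt2 in any comparison of the day-7 libraries over ZT, the ZT1 calls included. Same-numbered replicates did not deviate together (median correlation 0.00278 on day 7 and 0.013 at ZT21), so the replicate block rests on shared numbers only.

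Over all genes, without the libraries apart the averaged effect called 521 genes (1545 with all libraries), ZT21 on day 7 called 2 (1473), the interaction 108 (282), ZT1 0 (59), ZT9 394 (75), and the step from day 5 to 7 called 182 (1538) and from day 7 to 9 called 1 (1084). Without a filter the averaged effect called 1020, ZT13 296 (526) and the interaction 135. DESeq2 called 1677 for the interaction, 238 for the difference in rhythm (28), 301 at ZT1, 1067 at ZT13, 2291 on day 7 (1516), 301 on day 9 (69) and 164 on day 11 (42). With NC ZT5 day 3 called 1233 (3303), and with NC ZT1 day 5 called 526 (1865). Low counts limit Mt2 and Cdkn1a, whose lowest levels were under 1 CPM.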
